A study of Mus musculus with 18 samples.

Results

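The genes described here are 36 mouse genes whose products build and run mitosis, measured through the progression from inflamed colon to carcinoma in mice given azoxymethane and dextran sulphate sodium. They were listed by symbol for their function, with earlier results of these data known. On the array, 35 of the 36 had a probe set annotated to that gene alone. Ccnb1, which encodes cyclin B1, had none and has no expression value here. The 35 are among 18193 genes with a probe set of their own and among the 12878 genes that passed a filter on dim signals. All 35 passed that filter, and the member seen least often was above the median of the table in 12 of 18 arrays.

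The mice were ICR males, outbred and 6 weeks old at the start, and total RNA was extracted from colorectal tissue, with 3 biological replicates and so 3 arrays in each of 6 groups. Whether each array stands for a separate mouse is not stated in the labels, so p-values measure only the spread between these samples. Azoxymethane (AOM), a carcinogen with a preference for the colon, was injected at 10 mg/kg on day 1. Dextran sulphate sodium (DSS), which damages the colonic epithelium, was given in the drinking water in 3 cycles, first at 2% from day 8 until day 14, then at 1.5% from day 29 until day 33 and again from day 50 until day 54. Normal mucosa came on day 14 from mice given saline and distilled water in place of both agents. The groups from AOM/DSS mice were inflamed mucosa on day 14, low grade dysplasia (LGD) on day 28, high grade dysplasia (HGD) on day 42, high grade dysplasia with active inflammation (called inflamed HGD here) on day 56 and carcinoma on day 140. Stage was assigned under the microscope, and active inflammation on day 56 is stated in the study's design while the sample titles give high grade dysplasia alone. By then all 3 cycles had been given, LGD mice had received the first alone, and HGD mice had not yet received the last. Every diseased group carries both agents, so the effects of AOM and DSS cannot be told apart. Normal mucosa was sampled on day 14 only, so for the 4 later groups stage and age of the mice differ together. RNA was taken from tissue, in which fewer cells of a type and less RNA per cell cannot be told apart.

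Mitosis begins when the kinase CDK1 is activated by B-type cyclins. Polo-like and Aurora kinases then shape the spindle, a checkpoint at the kinetochores holds back the anaphase promoting complex until all chromosomes are attached, and a contractile ring divides the cell. In dividing cells the genes for these proteins are transcribed together late in the cell cycle, under the forkhead factor FOXM1 and complexes of MuvB proteins with B-MYB or with the DREAM repressors, and many of their promoters carry a CHR element near the start site with CCAAT boxes upstream of it. In the normal colon, dividing cells lie in the lower crypt and the differentiated cells above them no longer divide.

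The promoters of 4 members are shown because these genes changed in more comparisons than, or in as many as, any other member with a promoter in the RefSeq table (GRCm38.p6) that holds both kinds of letters. Top2a, Plk1 and Kpna2 changed in 4 of the 10 comparisons. Ect2 changed in 3 and was taken from the genes with that number for its large change in inflamed mucosa, a choice made after its values were seen. Each window runs from 250 bases before to 50 bases after the annotated start, read on the strand of the gene. Capitals mark the letters searched on both strands, which are TTTGAA or TTTAAA for a CHR (TTCAAA is TTTGAA on the other strand) and CCAAT for a CCAAT box (ATTGG is CCAAT on the other strand). No CHR match overlaps a CCAAT match in these windows.
Top2a, topoisomerase II alpha, chr11:99024140-99024439, minus strand: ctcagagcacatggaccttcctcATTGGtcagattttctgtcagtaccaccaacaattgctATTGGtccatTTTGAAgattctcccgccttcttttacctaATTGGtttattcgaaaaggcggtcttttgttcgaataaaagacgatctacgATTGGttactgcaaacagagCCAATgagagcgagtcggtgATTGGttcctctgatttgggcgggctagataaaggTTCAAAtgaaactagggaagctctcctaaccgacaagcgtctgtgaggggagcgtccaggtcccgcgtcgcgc
Plk1, polo-like kinase 1, chr7:122159185-122159484, plus strand: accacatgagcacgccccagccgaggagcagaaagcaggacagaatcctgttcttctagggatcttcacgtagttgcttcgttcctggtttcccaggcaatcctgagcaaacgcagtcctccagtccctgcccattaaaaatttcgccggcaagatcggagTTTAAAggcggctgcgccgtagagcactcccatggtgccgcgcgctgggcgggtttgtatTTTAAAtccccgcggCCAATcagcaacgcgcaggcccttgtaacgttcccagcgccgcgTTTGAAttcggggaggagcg
Kpna2, importin alpha 1, chr11:106999476-106999775, minus strand: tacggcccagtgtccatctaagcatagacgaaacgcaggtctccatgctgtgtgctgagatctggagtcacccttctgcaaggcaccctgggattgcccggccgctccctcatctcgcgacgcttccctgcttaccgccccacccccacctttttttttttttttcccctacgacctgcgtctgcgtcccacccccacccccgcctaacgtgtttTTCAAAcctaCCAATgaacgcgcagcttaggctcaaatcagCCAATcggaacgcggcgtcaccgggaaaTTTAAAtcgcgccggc
Ect2, a RhoA exchange factor, chr3:27153829-27154128, minus strand: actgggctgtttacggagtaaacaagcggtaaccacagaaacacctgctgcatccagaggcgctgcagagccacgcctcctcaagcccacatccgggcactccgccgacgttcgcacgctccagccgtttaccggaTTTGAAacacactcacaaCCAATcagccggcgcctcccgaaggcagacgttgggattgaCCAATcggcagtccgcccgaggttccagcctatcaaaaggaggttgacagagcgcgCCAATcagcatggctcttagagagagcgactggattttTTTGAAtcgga

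In the Top2a window, 6 CCAAT matches lie between positions -227 and -58 from the start, and CHR matches begin at -179 and -23. The Plk1 window holds 3 CHR matches and 1 CCAAT match, Kpna2 holds 2 and 2, and Ect2 holds 2 and 3. Of the 36 members, 32 had a window, 35 windows in all because some genes have several starts. CHR letters were in 85.7% of the members' windows, against 27.6% of all 32851 windows in the table. CCAAT was in 71.4% of the members' windows and 37.4% of all windows, and both were in 68.6% and 10.7%. Among members, the letters of neither kind were in the windows of Mad2l1, Melk, Nuf2 and Nusap1, and Bub1 held CCAAT only. Anln, Birc5, Cep55, Kif2c and Ndc80 held CHR letters only, and 22 of the 32 members held both. These matches describe the letters in 300 bases, and nothing about the binding of a factor was measured.

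Every measured member had its lowest group mean in inflamed mucosa (35 of 35). The group with the highest mean was LGD for 24 members, HGD for 6, inflamed HGD for 3 and normal mucosa for 2 (Foxm1 and Nusap1). These orders were not counted over all genes, of which 24.3% fell in inflamed against normal mucosa. Averaged over the 35 genes and set against the mean of normal mucosa, the 3 arrays were at -0.85, -0.92 and -0.99 (log2) in inflamed mucosa, at 0.48, 0.34 and 0.26 in LGD, at 0.41, 0.39 and 0.09 in HGD, at 0.55, 0.11 and 0.04 in inflamed HGD, and at 0.06, 0.06 and -0.20 in carcinoma. Normal arrays themselves ran from -0.09 to 0.16 on this scale. The inflamed arrays were thus far below all others, those of LGD were above every normal array, and those of the later groups overlapped with normal mucosa. In inflamed HGD, replicate 1 stood above the other replicates, and the median SD of a member within the group was 0.30, against 0.15 in normal mucosa. Over all genes the median SD was 0.21 in inflamed HGD and 0.13 in normal mucosa.

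**Figure D1:**
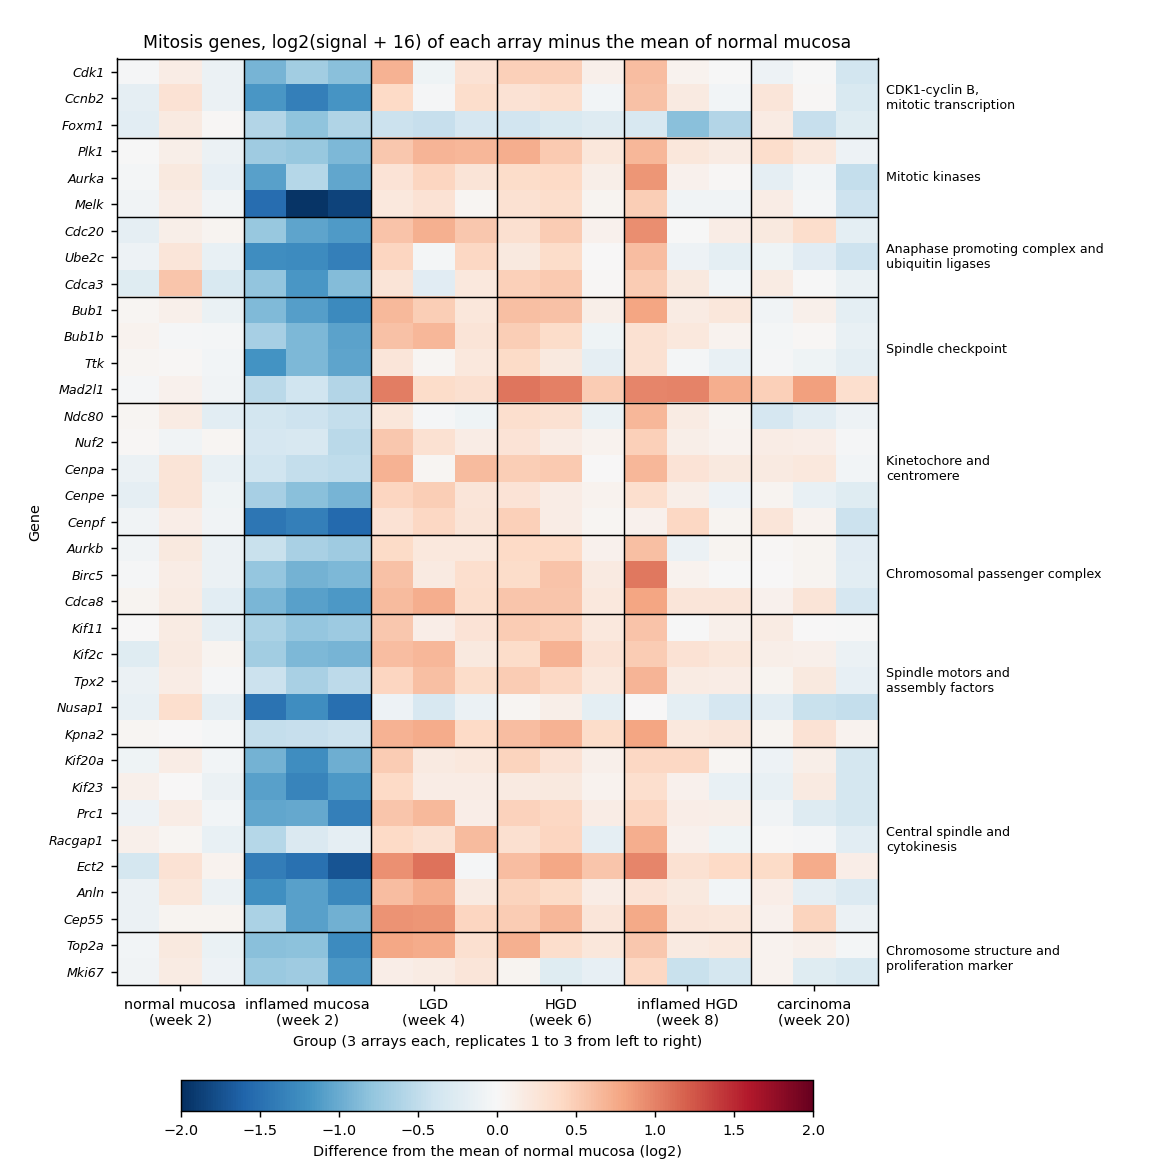
Level of 35 mitosis genes (rows, grouped by role) in each of the 18 arrays (columns, 6 groups of 3), as log2(signal + 16) minus the mean of normal mucosa, with blue for lower and red for higher. The 3 inflamed mucosa columns are below the normal mean for all 35 genes, and LGD has the highest group mean for 24.

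The quality of the arrays was similar with few exceptions. Array medians ran from 55.7 to 57.8 signal units. In LGD replicate 2 the 3' probe set of Gapdh read 1.63 (log2) above the 5' probe set, against -0.08 to 0.15 in the other 17 arrays, a ratio used as a measure of RNA integrity. The 18S rRNA controls read 8.88, 8.60 and 10.33 (log2) in inflamed mucosa, against 10.52, 10.90 and 11.23 in normal mucosa. Precision is limited by having 3 arrays per group, and the labels name no scan date or batch.

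The comparison of inflamed with normal mucosa, both from day 14, shows how the mitosis genes stood at the end of the first DSS cycle. By limma with Benjamini-Hochberg adjustment over all 12878 genes, 33 of 35 members fell and 0 rose. Of all genes, 24.3% fell. All 3 inflamed arrays were below all 3 normal arrays for 35 of 35 members, against 30.8% of all genes. The median log2 change of the members was -0.90, a level 0.537 times that of normal mucosa, and the median over all genes was 0.01. The changes ran from -1.77 for Melk to -0.35 for Racgap1, and they are on the log2(signal + 16) scale, which understates the change of dim genes.

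Among the genes that start mitosis, Cdk1, the kinase at the head of the programme, was at 7.91, 8.15 and 8.01 (log2 signal) in inflamed mucosa, against 8.83, 8.99 and 8.72 in normal mucosa (log2 change -0.82 ± 0.20, adjusted p = 0.00318). Ccnb2, a B-type cyclin that activates Cdk1, was at 6.96, 6.76 and 6.95 in inflamed mucosa, against 7.95, 8.41 and 8.01 in normal mucosa (log2 change -1.24 ± 0.19, adjusted p = 0.000121). Foxm1, the transcription factor for many genes of this list, was at 7.26, 7.04 and 7.24 in inflamed mucosa, against 7.63, 8.03 and 7.87 in normal mucosa (log2 change -0.67 ± 0.16, adjusted p = 0.00301). The arrays of the 2 groups did not overlap for any of these genes. The mitotic kinases fell as well. Plk1, needed for centrosome maturation and cytokinesis, was at 6.85, 6.80 and 6.66 in inflamed and 7.55, 7.68 and 7.45 in normal mucosa (log2 change -0.79 ± 0.16, adjusted p = 0.000776). Aurka, the Aurora kinase of the spindle poles, was at 6.18, 6.70 and 6.23 in inflamed and 7.24, 7.47 and 7.11 in normal mucosa (log2 change -0.90 ± 0.21, adjusted p = 0.00239). Melk, a kinase found in dividing and embryonic cells, had the largest fall of the list, with 6.00, 5.56 and 5.67 in inflamed and 7.45, 7.66 and 7.44 in normal mucosa (log2 change -1.77 ± 0.17, adjusted p = 3.71e-06).

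Genes for exit from mitosis fell in the same samples. Cdc20, which activates the anaphase promoting complex, was at 9.45, 9.14 and 9.07 in inflamed mucosa, against 10.03, 10.32 and 10.26 in normal mucosa (log2 change -0.98 ± 0.21, adjusted p = 0.00166). Ube2c, the ubiquitin-conjugating enzyme of that complex, was at 9.36, 9.35 and 9.24 in inflamed mucosa, against 10.51, 10.86 and 10.45 in normal mucosa (log2 change -1.29 ± 0.20, adjusted p = 0.000106). Every inflamed array was over 0.5 log2 units below every normal array for both genes. Cdca3, an adaptor in the degradation of the mitotic inhibitor WEE1, changed by -0.94 with an SE of 0.23. The spindle checkpoint genes fell in 4 of 4 cases. Bub1, a checkpoint kinase at the kinetochore, was at 6.50, 6.29 and 6.12 in inflamed and 7.42, 7.50 and 7.25 in normal mucosa (log2 change -1.09 ± 0.18, adjusted p = 0.000208). Its relative Bub1b changed by -0.88 and the checkpoint kinase gene Ttk by -1.05, while Mad2l1, whose product binds and holds CDC20, changed by only -0.51 and lay close to the threshold (log2 change -0.51 ± 0.19, adjusted p = 0.0396).

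Kinetochore and centromere genes included large and small changes. Cenpf, a large kinetochore protein, was at 6.22, 6.30 and 6.10 in inflamed and 7.59, 7.79 and 7.58 in normal mucosa (log2 change -1.45 ± 0.16, adjusted p = 9.27e-06). The genes of the NDC80 complex, which holds microtubules at the kinetochore, changed less, Ndc80 by -0.42 and Nuf2 by -0.40. Cenpe, the kinesin that moves chromosomes to the spindle equator, changed by -0.81. Cenpa, the histone H3 variant of centromeres, was at 8.02, 7.93 and 7.91 in inflamed and 8.30, 8.67 and 8.27 in normal mucosa and did not pass (log2 change -0.46 ± 0.19, adjusted p = 0.0607, 95% interval -0.87 to -0.05). All inflamed arrays were below all normal arrays for Cenpa too. The chromosomal passenger complex corrects wrong attachments, and its 3 measured genes fell. Its kinase Aurkb was at 6.39, 6.19 and 6.12 in inflamed and 6.77, 7.03 and 6.71 in normal mucosa (log2 change -0.60 ± 0.16, adjusted p = 0.00697). Birc5, or survivin, was at 8.21, 8.04 and 8.09 in inflamed and 8.96, 9.13 and 8.87 in normal mucosa (log2 change -0.87 ± 0.22, adjusted p = 0.00427), and Cdca8, or borealin, changed by -1.05.

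Of the spindle motors and assembly factors, 5 of 5 fell. Kif11, the motor that pushes the spindle poles apart, was at 6.57, 6.42 and 6.47 in inflamed and 7.20, 7.36 and 7.02 in normal mucosa (log2 change -0.71 ± 0.15, adjusted p = 0.00127). Tpx2, which activates Aurora A on the spindle, was at 6.19, 5.96 and 6.09 in inflamed and 6.49, 6.76 and 6.59 in normal mucosa (log2 change -0.54 ± 0.15, adjusted p = 0.00755). Nusap1, a microtubule-bundling protein, was at 6.91, 7.15 and 6.89 in inflamed and 8.25, 8.73 and 8.21 in normal mucosa (log2 change -1.41 ± 0.15, adjusted p = 5.86e-06). On the probe sets used, Nusap1 thus fell by about as much as Cenpf, and Tpx2 by less. The other passing probe set of Tpx2 changed by -0.998, and that of Cenpf by -0.835. Kpna2, an importin that holds spindle factors inactive until they are released by RAN, changed by -0.46 and the microtubule depolymerase gene Kif2c by -0.85. Central spindle and cytokinesis genes fell in 6 of 7 cases, with the lowest median of the role groups (-1.14). Kif20a, a kinesin of the central spindle, was at 6.09, 5.79 and 6.07 in inflamed and 6.96, 7.19 and 6.98 in normal mucosa (log2 change -1.06 ± 0.15, adjusted p = 6.03e-05). Ect2, which activates RhoA to place the contractile ring, was at 6.84, 6.73 and 6.50 in inflamed and 7.86, 8.50 and 8.29 in normal mucosa (log2 change -1.53 ± 0.27, adjusted p = 0.000307). Anln, a scaffold of that ring, was at 6.71, 6.86 and 6.65 in inflamed and 7.83, 8.17 and 7.83 in normal mucosa (log2 change -1.20 ± 0.16, adjusted p = 3.57e-05).

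The inflamed arrays were below the normal arrays for all 3 of these genes. Cep55, which recruits the machinery of final separation, was at 7.29, 6.83 and 6.96 in inflamed and 7.81, 7.97 and 7.98 in normal mucosa (log2 change -0.90 ± 0.19, adjusted p = 0.00138). The bundler Prc1 changed by -1.14 and the kinesin Kif23 by -1.18. Racgap1, the partner of Kif23 in the centralspindlin complex, changed by -0.35 and did not pass (log2 change -0.35 ± 0.20, adjusted p = 0.166, 95% interval -0.77 to 0.07). Its other passing probe set changed by -0.83. The last role group holds 2 general marks of dividing cells. Top2a, which untangles sister chromatids, was at 8.33, 8.34 and 7.91 in inflamed and 9.10, 9.36 and 9.03 in normal mucosa (log2 change -0.97 ± 0.17, adjusted p = 0.000315). Mki67, the gene of the Ki-67 proliferation antigen, was at 9.45, 9.47 and 9.04 in inflamed and 10.11, 10.35 and 10.09 in normal mucosa (log2 change -0.86 ± 0.19, adjusted p = 0.00209).

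**Figure D2:**
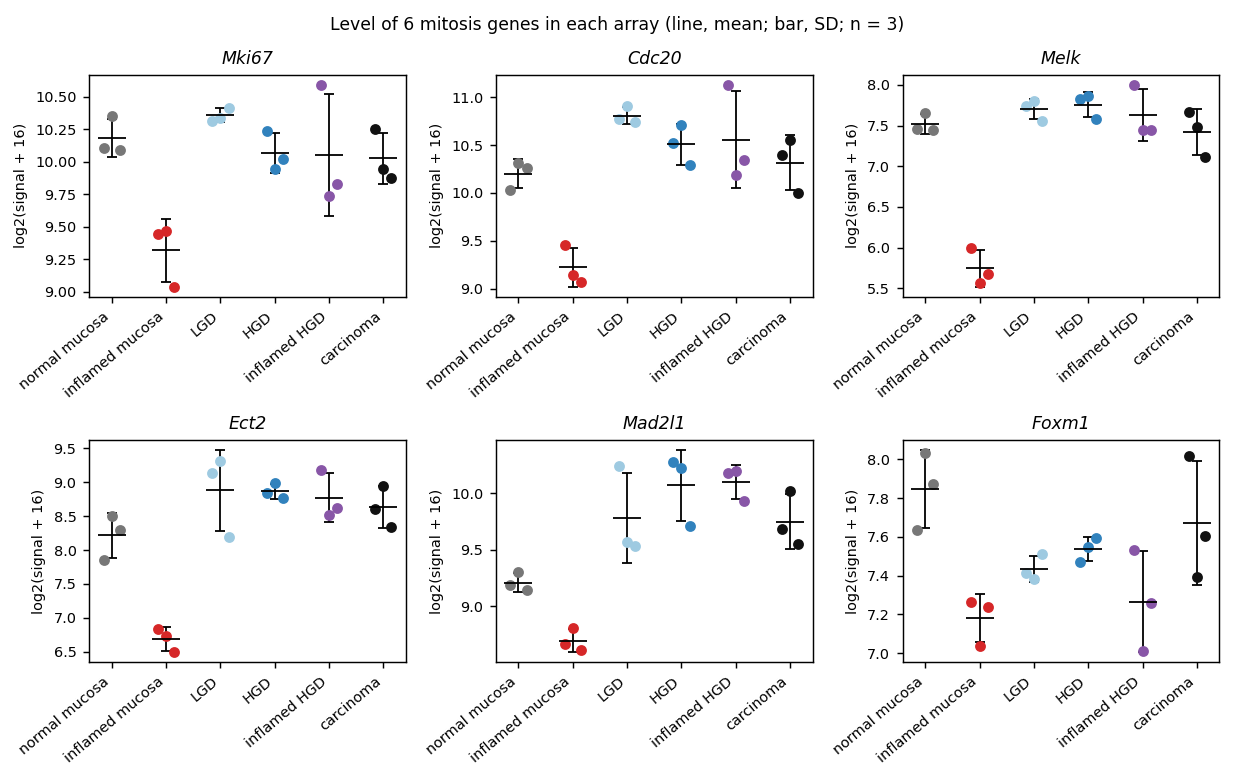
Level of 6 mitosis genes in each array (y axis, log2(signal + 16); x axis, the 6 groups), with a line at the group mean and a bar for the SD (n = 3). The inflamed mucosa arrays are below the normal arrays in every panel, Mad2l1 is above normal in all 4 later groups, and the mean of Foxm1 is below normal in them.

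Markers of other cells moved in the same samples. Of 15 epithelial genes, among them Epcam, Cdh1 and Krt8, 15 fell in inflamed mucosa, with a median of -3.10 and group means of 6.21 to 11.13 (log2 signal) in inflamed and 8.83 to 14.14 in normal mucosa. Markers of neutrophils (9 of 9), macrophages (9 of 10), fibroblasts (7 of 7) and endothelium (6 of 6) rose there. Among B and plasma cell markers only Pou2af1 passed (1.61), and no T cell or smooth muscle marker did. The lowest signal in an inflamed array ran from 16.2 (Esrp1) to 295 (Epcam) over the 15 epithelial genes, where the table median was 56.5. Replicates 1, 2 and 3 of inflamed mucosa had epithelial means of -1.52, -5.29 and -2.81 relative to normal mucosa, where the means of the mitosis genes were -0.85, -0.92 and -0.99. The epithelial values thus spread far more between these arrays than the mitosis values did. The mitosis genes had lower means in normal mucosa, from 6.34 (Ndc80) to 10.61 (Ube2c). The scale understates the change of dim genes, so the sizes of change in the 2 lists are not directly comparable. On this scale the mitosis mean was above the epithelial mean by 0.68, 4.37 and 1.82 in inflamed replicates 1, 2 and 3. With that limit, these differences do not show which list fell more. The part of cell composition in the fall of the mitosis genes was not tested.

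Other genes of the cell cycle were taken from lists made by function. Of 40 further mitotic genes tested, 30 fell in inflamed mucosa and 1 rose, with a median of -0.61, and the shares among all genes were 24.3% for lower and 22.5% for higher. The genes that fell most were Ckap2, a spindle protein (-1.32), Cks2, a CDK1 accessory subunit (-1.25), and the microtubule regulator Stmn1 (-1.25). The exception was Ube2s, which extends ubiquitin chains for the anaphase promoting complex and rose by 0.57. Of the genes of DNA replication and the G1/S transition 8 of 25 fell, with a median of -0.23, led by Uhrf1 (-1.26), Gmnn (-0.89) and Ccne2 (-0.80). Whether the shares differ between the lists was not tested. Of 17 regulators of mitotic transcription, 8 fell and 1 rose, Nfyb by 0.36. The pocket protein gene Rbl1 changed by -1.23, the repressor E2f8 by -1.07, followed by Tfdp2, a partner of E2F factors. Of 12 inhibitors of cyclin-dependent kinases and genes of cell cycle exit, 4 fell and 1 rose. Cdkn2b, which encodes the CDK4 inhibitor p15, changed by -2.95, Ccng2 by -1.09 and the p21 gene Cdkn1a by -0.81, while the p19 inhibitor gene Cdkn2d rose by 1.22. Of 11 crypt base and progenitor genes, Sox9 (-2.06) and Prom1 (-0.55) fell, and Olfm4 (2.77) and Cd44 (1.78) rose. Cd44 is also expressed by leukocytes. Olfm4 was dim in normal mucosa, with a mean of 4.48 (log2), and varied between the inflamed arrays (mean 7.24, SD 1.59). Which cells these changes came from was not tested.

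**Figure D3:**
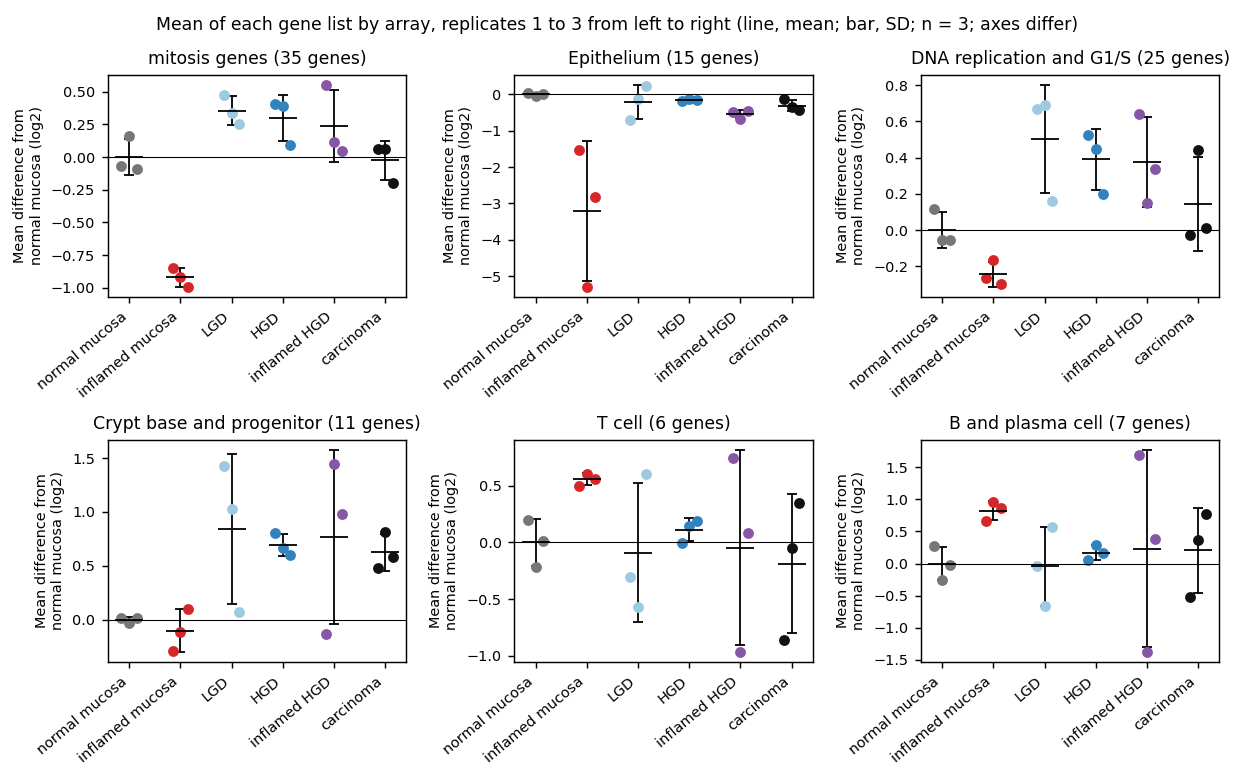
Mean of 6 gene lists in each array minus the mean of normal mucosa (y axis, log2, scales differ between panels; x axis, the 6 groups), with a line at the group mean and a bar for the SD (n = 3). In inflamed mucosa the mitosis genes are at -0.85 to -0.99 while the epithelial genes spread from -1.52 to -5.29, and in inflamed HGD replicate 1 has the highest B and plasma cell value of the 3 arrays (1.69).

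All later groups had higher means than inflamed mucosa for every member, and 2 of them were tested against it. Between LGD on day 28 and inflamed mucosa on day 14, 34 of 35 members were higher in LGD, against 19.3% of all genes, and all LGD arrays were above all inflamed arrays for 35 members, against 24% of all genes. The median change was 1.24, and 0.02 over all genes. The comparisons share arrays, those of inflamed mucosa here and those of normal mucosa further on, and are not independent of each other. Ect2 was at 9.13, 9.31 and 8.20 in LGD and differed from inflamed mucosa the most (log2 change 2.19 ± 0.27, adjusted p = 3.69e-05). It was followed by Melk (log2 change 1.96 ± 0.17, adjusted p = 4.86e-06), Cenpf (log2 change 1.77 ± 0.16, adjusted p = 5e-06) and Anln (log2 change 1.71 ± 0.16, adjusted p = 5.74e-06). The exception was Foxm1, at 7.41, 7.38 and 7.51 in LGD (log2 change 0.25 ± 0.16, adjusted p = 0.224, 95% interval -0.08 to 0.59). Its 3 LGD arrays were still above its 3 inflamed arrays. In LGD epithelial markers were higher for 14 of 15 genes. Macrophage markers were lower for 8 of 10, neutrophil markers for 3 of 9, endothelial markers for 5 of 6 and fibroblast markers for 2 of 7. Of all 12878 genes, 2195 were lower in LGD. The part of these cells in this difference was not tested.

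Inflamed HGD on day 56 and inflamed mucosa on day 14 were both inflamed tissue by the design of the study. Of the members, 34 of 35 were higher in inflamed HGD, against 20.9% of all genes, and all arrays were above for 34 members, against 24.2% of all genes. The median was 1.23, and 0.04 over all genes. Ect2 changed by 2.09, Melk by 1.89, Cenpf by 1.64 and Bub1 by 1.48. Foxm1, at 7.53, 7.01 and 7.26 in inflamed HGD, was the member that did not pass (log2 change 0.09 ± 0.16, adjusted p = 0.699, 95% interval -0.25 to 0.42), and its arrays overlapped. In inflamed HGD epithelial markers were higher for 14 of 15 genes. Macrophage markers were lower for 9 of 10, neutrophil markers for 6 of 9, endothelial markers for 6 of 6 and fibroblast markers for 5 of 7. Of all 12878 genes, 2371 were lower in inflamed HGD. The part of these cells in this difference was not tested. Of the further mitotic genes 36 of 40 were higher in LGD and 35 of 40 in inflamed HGD than in inflamed mucosa, and of the replication genes 16 and 14 of 25.

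**Figure D4:**
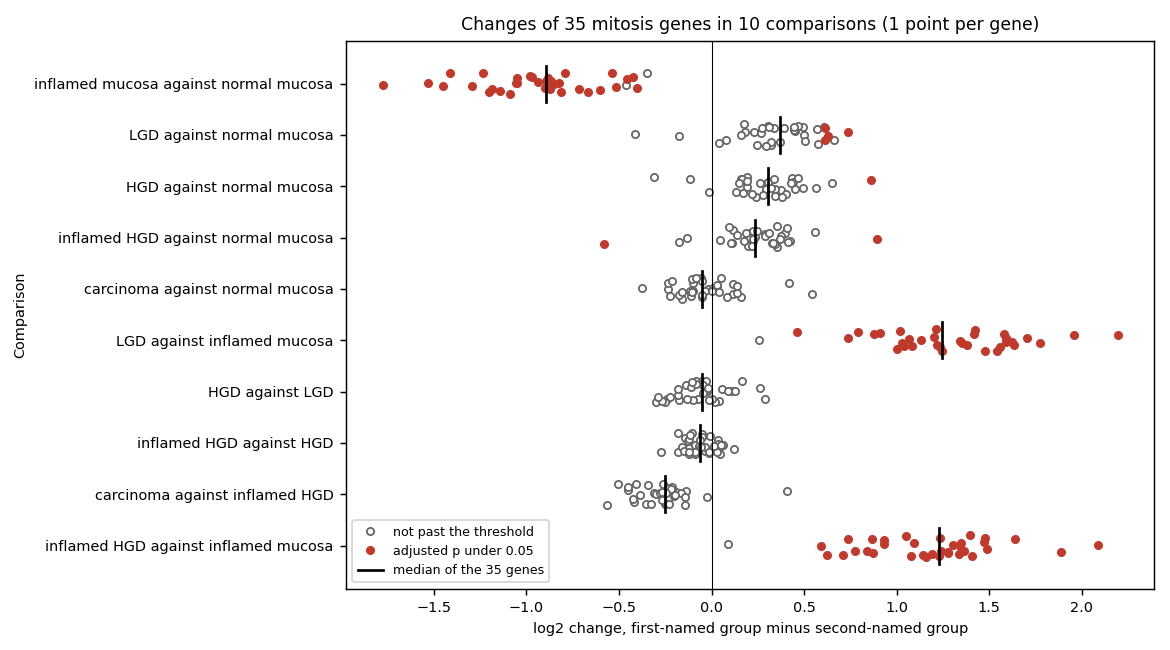
Log2 change of 35 mitosis genes (1 point each) in the 10 comparisons, the first-named group minus the second, with filled points for adjusted p under 0.05 and a bar at the median. The medians are -0.90 for inflamed against normal mucosa, 1.24 for LGD and 1.23 for inflamed HGD against inflamed mucosa, and between -0.25 and 0.37 in the other comparisons.

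Against normal mucosa, LGD held most members at slightly higher levels, and few passed the test. In LGD 4 of 35 members rose and 0 fell, against 2.61% of all genes that rose, and 33 of 35 changes were positive, with a median of 0.37 (0.02 over all genes). At an unadjusted p under 0.05, 18 members were higher and 1 lower, against 24.4% of all genes in either direction. All LGD arrays were above all normal arrays for 20 members, against 16.3% of all genes. The members that rose were Cep55, Plk1, Top2a and Kpna2. Cep55 was at 8.82, 8.80 and 8.36 in LGD, against 7.81, 7.97 and 7.98 in normal mucosa (log2 change 0.74 ± 0.19, adjusted p = 0.0392). Plk1 was at 8.11, 8.25 and 8.22 in LGD, against 7.55, 7.68 and 7.45 in normal mucosa (log2 change 0.63 ± 0.16, adjusted p = 0.0333). These genes act at the end and the start of mitosis, and for both every LGD array was above every normal array. Top2a was at 9.94, 9.90 and 9.48 in LGD, against 9.10, 9.36 and 9.03 in normal mucosa (log2 change 0.61 ± 0.17, adjusted p = 0.0488). Kpna2 was at 10.79, 10.84 and 10.50 in LGD, against 10.14, 10.10 and 10.05 in normal mucosa (log2 change 0.61 ± 0.15, adjusted p = 0.0288). The groups did not overlap for these genes either. None of these 4 calls held in every alternative. The count was 0 without any of the normal arrays, without LGD replicate 1 and without LGD replicate 2, the array with the high Gapdh ratio, and it was 12 without LGD replicate 3. In the same arrays, replicates 1, 2 and 3 of LGD, neutrophil markers averaged 5.09, 2.20 and 0.65 above normal mucosa. Epithelial markers averaged -0.71, -0.13 and 0.23 relative to it, and crypt base and progenitor genes 1.42, 1.03 and 0.08. The part of these cells in the mitosis values was not tested. For the 31 members that did not pass, the 95% intervals ran from -0.75 (Foxm1) to 1.23 (Ect2).

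**Figure D5:**
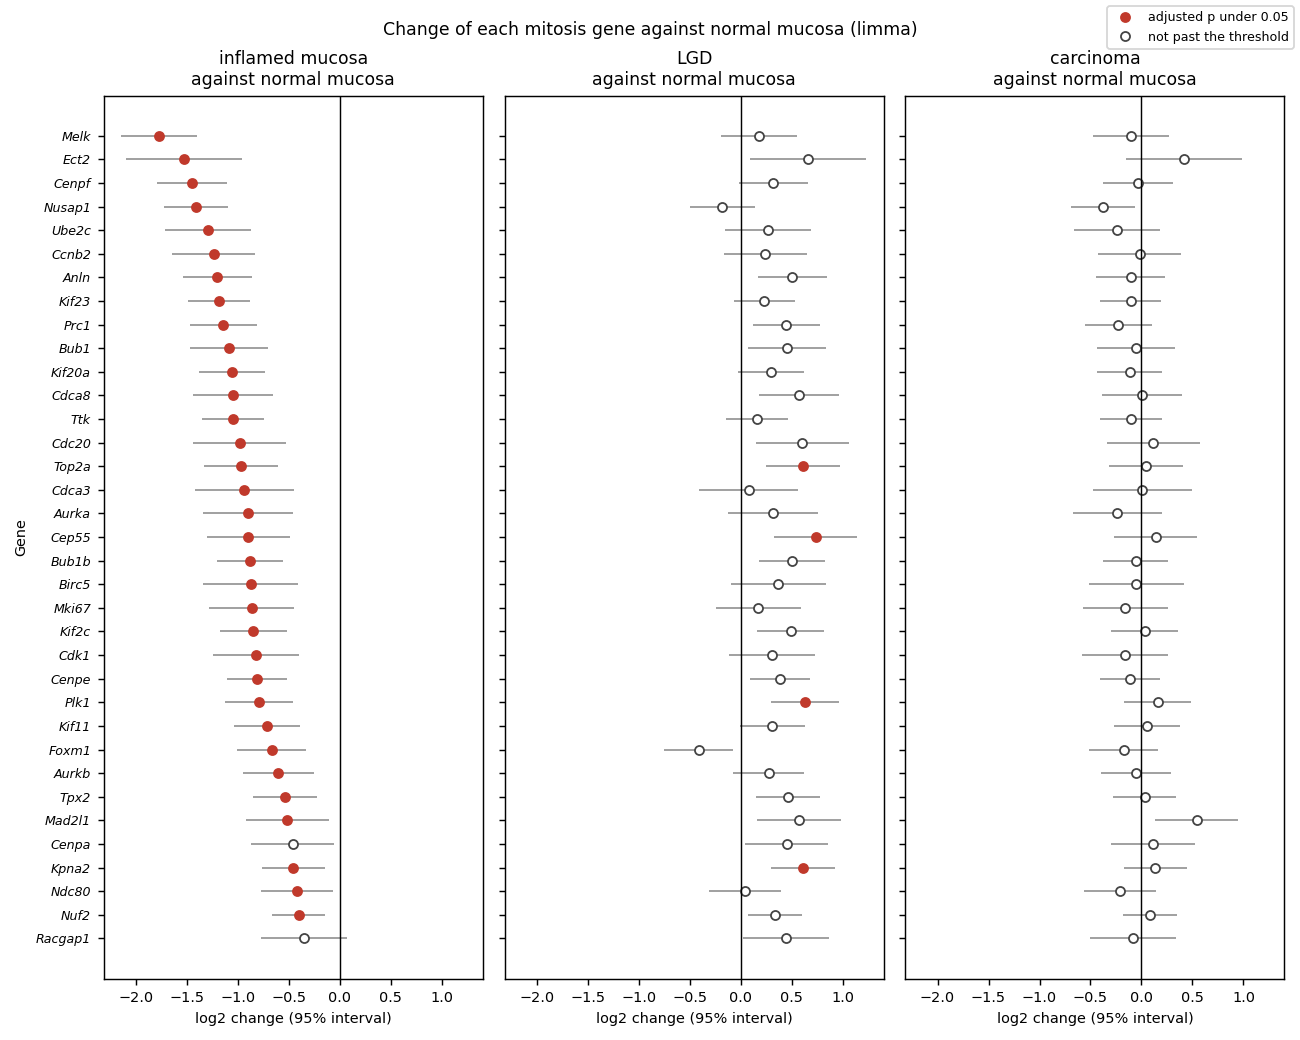
Log2 change of each mitosis gene (rows, ordered by the change in inflamed mucosa) against normal mucosa in inflamed mucosa, LGD and carcinoma (panels), with 95% intervals from limma and filled points for adjusted p under 0.05. In inflamed mucosa 33 of 35 genes fell, in LGD 4 rose (Cep55, Plk1, Top2a and Kpna2), and in carcinoma the intervals of all but Mad2l1 and Nusap1 include 0.

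Against normal mucosa, HGD had 1 member that rose, Mad2l1, and 0 that fell, against 0.621% of all genes that rose. Changes were positive for 32 of 35, with a median of 0.31 (0.01 over all genes). At an unadjusted p under 0.05, 12 members were higher and 0 lower, against 19.6% of all genes in either direction, and all arrays were above normal for 14 members, against 17.6% of all genes. In inflamed HGD 1 member rose, against 4.84% of all genes, and 1 fell, against 6.43%. These were Mad2l1 and Foxm1. Changes were positive for 32 of 35 with a median of 0.24 (0.03 over all genes), which was 0.07 without inflamed HGD replicate 1 and 0.36 without normal replicate 2, and 8 members were higher and 1 lower at an unadjusted p under 0.05, against 30.2% of all genes. All arrays were above normal for 10 members, against 15.5% of all genes. The share of called members in inflamed HGD was thus near the share among all genes.

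Mad2l1, the checkpoint gene, was at 9.19, 9.30 and 9.14 in normal mucosa, 8.66, 8.81 and 8.61 in inflamed mucosa, 10.24, 9.57 and 9.53 in LGD, 10.28, 10.22 and 9.71 in HGD, 10.18, 10.19 and 9.93 in inflamed HGD and 9.68, 10.02 and 9.55 in carcinoma. Every array of the 4 later groups was above every normal array. The change was 0.57 ± 0.19 in LGD (adjusted p = 0.0875), 0.86 ± 0.19 in HGD (adjusted p = 0.0471), 0.89 ± 0.19 in inflamed HGD (adjusted p = 0.0138) and 0.54 ± 0.19 in carcinoma (adjusted p = 0.16). The call in HGD was lost without any normal array and without HGD replicate 1 or 2, and the call in inflamed HGD kept an adjusted p of at most 0.0469 in the 14 alternatives. Kpna2 was the other member with all arrays of the 4 later groups above normal, at 10.72, 10.79 and 10.47 in HGD, 10.89, 10.30 and 10.34 in inflamed HGD and 10.15, 10.38 and 10.17 in carcinoma. Its changes there were 0.56, 0.41 and 0.14, and none of these passed.

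Foxm1 differed in direction from most of the list. It was at 7.47, 7.55 and 7.60 in HGD and 8.02, 7.39 and 7.60 in carcinoma, and the group means were below normal in all 4 later groups. Its change was -0.41 ± 0.16 in LGD (adjusted p = 0.127), -0.31 ± 0.16 in HGD (adjusted p = 0.296), -0.58 ± 0.16 in inflamed HGD (adjusted p = 0.0344) and -0.17 ± 0.16 in carcinoma (adjusted p = 0.593). All arrays of LGD, HGD and inflamed HGD were below all normal arrays. The call in inflamed HGD was lost without normal replicate 2 or 3, without inflamed HGD replicate 2 or 3 and with only the 6 arrays of the comparison, and over the 14 alternatives its adjusted p ran from 0.0115 to 0.131. A second passing probe set of Foxm1, which may bind related transcripts, changed by -0.02 in LGD and -0.35 in inflamed HGD. A dim probe set of Foxm1 below the filter went the other way. It changed by 0.26 in LGD, 0.24 in HGD, 0.15 in inflamed HGD and 0.08 in carcinoma. Another below the filter stayed between -0.05 and 0.03 in these groups. Nusap1 was the other member below normal in all 4 later groups, with changes of -0.18 in LGD, -0.01 in HGD, -0.18 in inflamed HGD and -0.38 in carcinoma, none of which passed. By contrast, 14 members were above normal in all 4 later groups.

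The remaining lead genes show how the later groups lay around normal mucosa. Cdk1 was at 9.55, 8.77 and 9.14 in LGD, 9.32, 9.32 and 8.95 in HGD, 9.46, 8.92 and 8.84 in inflamed HGD and 8.74, 8.84 and 8.48 in carcinoma, and each of these groups overlapped with normal mucosa. Plk1 was at 8.29, 8.08 and 7.79 in HGD, 8.22, 7.79 and 7.72 in inflamed HGD and 7.91, 7.78 and 7.46 in carcinoma, and only the carcinoma arrays overlapped with normal mucosa. Aurka was at 7.55, 7.69 and 7.53 in LGD, 7.64, 7.67 and 7.39 in HGD, 8.15, 7.36 and 7.29 in inflamed HGD and 7.09, 7.21 and 6.80 in carcinoma. For Aurka the LGD arrays were above normal, and those of the other groups overlapped. Melk, the gene with the largest fall in inflamed mucosa, was back near normal at 7.74, 7.80 and 7.56 in LGD, 7.82, 7.86 and 7.58 in HGD, 8.00, 7.44 and 7.45 in inflamed HGD and 7.67, 7.48 and 7.11 in carcinoma.

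Of the anaphase promoting complex genes, Cdc20 was at 10.78, 10.91 and 10.74 in LGD, all above normal, then at 10.52, 10.71 and 10.29 in HGD, 11.13, 10.19 and 10.34 in inflamed HGD and 10.40, 10.55 and 10.00 in carcinoma, all overlapping with normal. Ube2c was at 11.03, 10.57 and 11.01 in LGD, 10.80, 10.98 and 10.62 in HGD, 11.23, 10.50 and 10.41 in inflamed HGD and 10.53, 10.39 and 10.20 in carcinoma, and overlapped with normal in each. Bub1 was at 8.05, 7.88 and 7.62 in LGD, 7.99, 7.98 and 7.51 in HGD, 8.19, 7.56 and 7.62 in inflamed HGD and 7.32, 7.50 and 7.20 in carcinoma. Bub1 lay above normal in the 3 dysplasia groups and overlapped with it in carcinoma. At the centromere, Cenpa was at 9.11, 8.44 and 9.04 in LGD, 8.90, 8.94 and 8.42 in HGD, 9.07, 8.69 and 8.60 in inflamed HGD and 8.59, 8.63 and 8.36 in carcinoma. Cenpf was at 7.95, 8.08 and 7.91 in LGD, 8.13, 7.80 and 7.70 in HGD, 7.75, 8.07 and 7.72 in inflamed HGD and 7.91, 7.73 and 7.24 in carcinoma. Cenpf was above normal in all LGD arrays, and Cenpa overlapped in each group. The other passing probe set of Cenpf changed by only 0.02 in LGD.

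Within the chromosomal passenger complex, Aurkb was at 7.23, 7.05 and 7.05 in LGD, 7.24, 7.23 and 6.93 in HGD, 7.43, 6.72 and 6.89 in inflamed HGD and 6.85, 6.89 and 6.61 in carcinoma. Birc5 was at 9.57, 9.17 and 9.33 in LGD, 9.36, 9.55 and 9.17 in HGD, 10.03, 9.05 and 8.97 in inflamed HGD and 8.99, 9.04 and 8.77 in carcinoma. In inflamed HGD both genes were highest in replicate 1. Of the spindle genes, Kif11 was at 7.73, 7.32 and 7.47 in LGD, 7.71, 7.68 and 7.41 in HGD, 7.76, 7.19 and 7.29 in inflamed HGD and 7.36, 7.20 and 7.18 in carcinoma. Tpx2 was at 7.04, 7.22 and 6.98 in LGD, 7.12, 7.03 and 6.83 in HGD, 7.29, 6.78 and 6.75 in inflamed HGD and 6.67, 6.81 and 6.45 in carcinoma. Kif11 was above normal in all HGD arrays and Tpx2 in all LGD and HGD arrays. In HGD the other passing probe set of Kif11 changed by only 0.04, and that of Tpx2 by 0.13.

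Among cytokinesis genes, Kif20a was at 7.54, 7.22 and 7.25 in LGD, 7.48, 7.33 and 7.15 in HGD, 7.46, 7.46 and 7.08 in inflamed HGD and 6.94, 7.15 and 6.69 in carcinoma. Ect2 was at 8.84, 8.99 and 8.76 in HGD, 9.19, 8.52 and 8.62 in inflamed HGD and 8.61, 8.95 and 8.35 in carcinoma. The Ect2 arrays of HGD and inflamed HGD were above normal, and those of LGD and carcinoma overlapped with it. Anln was at 8.55, 8.67 and 8.12 in LGD, 8.38, 8.32 and 8.09 in HGD, 8.21, 8.14 and 7.89 in inflamed HGD and 8.07, 7.76 and 7.67 in carcinoma. Cep55 was at 8.43, 8.58 and 8.17 in HGD, 8.68, 8.16 and 8.14 in inflamed HGD and 8.01, 8.37 and 7.81 in carcinoma. Cep55 stayed above normal in all arrays of both HGD groups, and Anln overlapped with normal in each later group. Top2a was at 9.87, 9.51 and 9.39 in HGD, 9.71, 9.34 and 9.37 in inflamed HGD and 9.23, 9.26 and 9.12 in carcinoma. Mki67 was at 10.32, 10.34 and 10.42 in LGD, 10.24, 9.95 and 10.02 in HGD, 10.59, 9.74 and 9.83 in inflamed HGD and 10.25, 9.95 and 9.88 in carcinoma. The proliferation marker Mki67 thus overlapped with normal mucosa in every later group, and its mean was above normal in LGD alone.

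In carcinoma on day 140, 0 of 35 members passed against normal mucosa in either direction by limma, against 0.901% of all genes. At an unadjusted p under 0.05, 1 member was higher (Mad2l1) and 1 lower (Nusap1), against 18.5% of all genes. Changes were positive for 14 members and negative for 21, with a median of -0.05 (-0.02 over all genes), and all carcinoma arrays were above all normal arrays for 2 members, against 14.4% of all genes. The 95% intervals of the 35 changes ran from -0.69 (Nusap1) to 0.99 (Ect2). Epithelial markers had a median change of -0.31 in carcinoma, with 0 of 15 called.

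Between successive lesions no member passed. For HGD against LGD the count was 0 of 35 by limma, against 0% of all genes, with 0 members at an unadjusted p under 0.05, against 6.99% of all genes. The median was -0.05 and ran from -0.12 to 0.04 over the alternatives, with both ends reached by leaving out an array (LGD replicate 3 and HGD replicate 3). The 95% intervals ran from -0.76 (Cdc20) to 0.75 (Cdca3). For inflamed HGD against HGD it was again 0 of 35 by limma, against 0% of all genes, with 0 at an unadjusted p under 0.05, against 3.28%. The median was -0.06 and ran from -0.24 without inflamed HGD replicate 1 to 0.03 without inflamed HGD replicate 3. The intervals ran from -0.66 (Ect2) to 0.50 (Cdc20). Neither median kept its sign in every alternative. For carcinoma against inflamed HGD the count was 0 of 35 by limma too, against 0% of all genes. Of the changes 34 of 35 were negative, with a median of -0.25 (-0.04 over all genes). At an unadjusted p under 0.05, 6 members were lower in carcinoma and 1 higher, against 11% of all genes in either direction, and all carcinoma arrays were below all inflamed HGD arrays for 7 members, against 9.25% of all genes. Aurka had the largest difference (log2 change -0.57 ± 0.21, adjusted p = 0.374). Foxm1 was the member with a positive change (log2 change 0.41 ± 0.16, adjusted p = 0.392). Without carcinoma replicate 3 the median was -0.16, and without inflamed HGD replicate 1 it was -0.09. The upper 95% bounds of the 35 changes reached 0.74 (Foxm1).

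Replicate 1 of inflamed HGD weighed on these values. Its mean over the mitosis genes was 0.55, against 0.11 and 0.04 in replicates 2 and 3, and Birc5 was at 10.03 in it, against 9.05 and 8.97 in the others. Without that replicate the median change of the members was 0.07 for inflamed HGD against normal mucosa and -0.09 for carcinoma against inflamed HGD. In the same array the B and plasma cell markers averaged 1.69 above normal mucosa, against -1.38 and 0.38 in the other replicates, and the T cell markers 0.75, against -0.97 and 0.08. Neutrophil markers averaged 3.15, 0.85 and 2.06 in replicates 1, 2 and 3. The crypt base list went the other way, with -0.13 in replicate 1 and 1.45 and 0.98 in the others. The part of these cells in the mitosis values was not tested.

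Against normal mucosa, genes of the other lists changed in the dysplasia groups. In LGD 4 of 40 further mitotic genes rose, against 2.61% of all genes, led by Cks1b (0.84 ± 0.18), the checkpoint ATPase Trip13 (0.77) and Tacc3 (0.58), with a median of 0.26. Of the replication genes 25 of 25 changes in LGD were positive, with a median of 0.52, and 5 of 25 rose, against the same 2.61%, the helicase genes Mcm3 (0.91), Mcm4 (0.73) and Mcm2 (0.71) first. Of the regulators E2f7 (0.81) and Tfdp1 (0.56) rose, and Rbl2, a member of the DREAM repressor, fell by 0.56, against 3.08% of all genes that fell. In HGD the call in the further mitotic list was Cks1b (0.83). In inflamed HGD, where 4.84% of all genes rose, 3 of 40 further mitotic genes did, Cks1b (0.94), Smc2 (0.55) and Tacc3 (0.48). Of the replication genes 4 of 25 rose there, with Gins1 (0.78) first. The medians of the replication genes were 0.38 in HGD and 0.44 in inflamed HGD. In HGD 0 of 25 passed by limma, where 0.621% of all genes rose. At an unadjusted p under 0.05, 13 were higher in HGD, against 19.6% of all genes in either direction. Cdkn2b was lower in inflamed HGD by 1.06 and Tfdp2 by 0.63. Of the crypt genes Prom1 rose in LGD (0.96), HGD (0.90) and inflamed HGD (0.83), and Cd44 in LGD (1.46) and inflamed HGD (1.11), where Myc rose too (0.65). The median of the 11 crypt genes was 0.80 in LGD, 0.74 in HGD, 0.68 in inflamed HGD and 0.57 in carcinoma. Lrig1, a brake on growth factor receptors, was -0.81 in HGD, where 0.52% of all genes fell, and -0.89 in inflamed HGD. In carcinoma 0 genes of these lists passed by limma, against 0.901% of all genes. At an unadjusted p under 0.05, 4 of 11 crypt genes were higher and 1 lower. Of 12 CDK inhibitor genes 2 were higher and 2 lower, and of 40 further mitotic genes 1 was higher and 1 lower. Of 25 replication genes 1 was higher, and of 17 regulators 1 was lower. Among all genes, 18.5% had such a p in either direction.

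Other probe sets of the same genes gave a check within the arrays. A further 16 probe sets of 14 members passed the filter. They had the sign of the probe set used in 15 of 16 cases for inflamed against normal mucosa, in 16 of 16 for LGD against normal mucosa, in 13 of 16 for HGD and in 13 of 16 for inflamed HGD against normal mucosa, and in 6 of 16 for carcinoma against normal mucosa. It was 16 of 16 for LGD and for inflamed HGD against inflamed mucosa, 12 of 16 for HGD against LGD, 13 of 16 for inflamed HGD against HGD and 16 of 16 for carcinoma against inflamed HGD. The exception in inflamed mucosa was a dim probe set of Kif2c at 0.09. The other probe set of Kif11 changed by -1.49 in inflamed mucosa, more than the set used here. With each gene taken as the mean of its passing probe sets, 35 of 35 members fell in inflamed mucosa and 35 of 35 were higher in LGD than in inflamed mucosa, and the change in inflamed mucosa was -0.38 for Kif2c and -1.10 for Kif11. Of the 35 members, 14 rest on probe sets whose names mark possible binding to related transcripts or several transcripts of the gene.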

How the data were processed

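RNA from 18 colorectal samples was hybridised to Affymetrix mouse arrays, which hold 45101 probe sets. The authors deposited 1 signal intensity per probe set and array, on a linear scale, and MAS5 is named in the submitters' processing notes, with its version, role and settings not given in the sources used here. These intensities ran from 3.39 to 24945, with a median of 56.5 over the table, and array medians of 55.7 to 57.8 served as the measure of signal per array. The deposited values were not scaled further and were taken as log2(signal + 16). Gene names came from the platform annotation, matched to RefSeq by gene identifier. Probe sets naming several genes (932) and 64 controls were left out of the gene values. Probe sets needed a signal above the table median in at least 3 of 18 arrays, and each gene was represented by its passing probe set with the highest mean, which left 12878 genes.

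A single linear model with the 6 groups was fitted to all genes in limma 3.58.1 (R 4.3.3) with moderated variances and an intensity trend, and 10 comparisons were each adjusted by Benjamini-Hochberg over all genes, with a threshold of 0.05. Values after ± are standard errors of the fit, which had 12 residual degrees of freedom. The procedure was tested on simulated data. The members and the gene lists were chosen with earlier results of these data known. Every member may be named, with values per array for 18 lead genes and for the members with the largest changes among those that passed, and up to 3 genes from each other list. Genes named beyond that rule, where 5 or fewer of a list passed or where a gene stood out, were chosen after their values were seen. The same alternatives were run for each comparison. They changed the offset, the filter, the probe set rule, the scaling, the trend, the samples in the fit and the replicate block, or left out 1 array. Promoter windows were read from RefSeq.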

Additional observations from a re-analysis of the deposited data

How the results depend on the processing

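The counts of called members were steady where most of the list moved and unsteady where few genes passed. The inflamed against normal mucosa count was 30 to 32 when an array was left out, and it was 33 to 34 for LGD against inflamed mucosa and 33 to 34 for inflamed HGD against inflamed mucosa. LGD against normal mucosa gave 4 called members, 2 with no filter on low signals, 0 with the 6 arrays of the comparison alone and 0 to 12 when an array was left out. HGD against normal mucosa gave 1, and 0 with no filter, 3 with its 6 arrays alone and 0 to 1 when an array was left out. Inflamed HGD against normal mucosa gave 2, and 1 with its 6 arrays alone and 1 to 2 when an array was left out. The count was 0 under every alternative for carcinoma against normal mucosa and for the 3 comparisons between lesions. Over the 108 calls of single members and 1512 alternatives, 1446 kept the call, 66 lost it and 0 changed sign. In inflamed against normal mucosa 29 of 33 calls held in every alternative, and those of Ndc80, Mad2l1, Nuf2 and Kpna2 did not. The causes were not tested.

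Whether the replicate numbers in the titles pair the samples is not stated. In no comparison did all 3 same-numbered pairs have deviations that correlated above 0.1 (range -0.46 to 0.27). With 3 pairs per comparison this cannot exclude a pairing. Over the mitosis genes, replicate 3 had the lowest mean in each of the 6 groups. It was at -0.09 in normal mucosa, -0.99 in inflamed mucosa, 0.26 in LGD, 0.09 in HGD, 0.04 in inflamed HGD and -0.20 in carcinoma. Replicate 1 had the highest mean in every AOM/DSS group. With the replicate number as a block (replicate block), 8 members were called for LGD against normal mucosa and 0 for HGD against normal mucosa.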
